A study of Mus musculus with 48 samples.

Results

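The neuronal immediate early genes are described here as a set of 10 genes: Fos, Fosb, Junb, Egr1, Egr2, Npas4, Nr4a1, Ier2, Arc and Dusp1. They were chosen by symbol from the 19601 protein-coding genes of the batch-corrected tables, and 9 of the 10 passed the filter on low counts that left 14839 genes for testing. RNA had been sequenced from the substantia nigra (SN), the midbrain region that holds dopaminergic (DA) neurons, of 48 male C57BL/6J mice. Each mouse received a unilateral striatal injection of α-synuclein preformed fibrils (PFF), which seed aggregation of the endogenous protein, or of monomeric α-synuclein as the control, and breathed 21% O2 or 11% O2 until harvest. The 4 groups had 12 mice each, and the authors' batch-corrected tables kept 11 monomer mice at 21% O2, 12 PFF mice at 21% O2, 9 monomer mice at 11% O2 and 10 PFF mice at 11% O2. Mice were injected at an age of 121 days and harvested 90 to 98 days later. The treatment protocol gives harvest 12 weeks after injection with housing at either oxygen level in between, whereas the design text describes 6 weeks at 21% O2 for all mice before the 11% O2 groups were moved, so the sources differ on the length of the exposure to 11% O2. For the main experiment, the study's methods start the exposure soon after the injection. Its experiment with 6 weeks at 21% O2 first had no monomer group at 11% O2, whereas these mice include such a group. The treatment protocol is therefore the account that matches these groups.

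Immediate early genes are switched on within minutes of a stimulus, without the synthesis of new protein, when calcium entry, cyclic AMP or growth factor signals activate kinases that phosphorylate transcription factors already bound at their promoters. In neurons they report recent synaptic activity, and their transcripts are short-lived, so a tissue sample records the state of the animal shortly before death as well as any lasting state. Most of them encode transcription factors that set a later wave of genes, while Arc acts at the synapse and Dusp1 switches off the kinases of the pathway. In a bulk tissue sample, fewer cells of a type and less RNA per cell cannot be told apart.

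The 48 libraries held 3134594 to 17120921 counts, and the 42 kept ones 12902996 to 17120921. Markers of DA neurons summed to 690.1 to 5310 TPM (transcripts relative to the library total, scaled by gene length) per mouse, none of the 8 was at 0 in any mouse, and Th, which encodes the rate-limiting enzyme of dopamine synthesis, ranged from 62.6 to 1153 TPM. PFF mouse 2 at 11% O2 had the lowest count total, a summed level of cortex and hippocampus neuron markers of 237.9 TPM against 25.5 to 70.9 TPM in the other mice, and the highest level of the 48 mice for Fosb, Junb, Egr2, Npas4 and Nr4a1. It was 1 of the 6 mice that the authors left out, with PFF mouse 5 at 11% O2, monomer mouse 10 at 21% O2 and monomer mice 8, 9 and 12 at 11% O2.

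Promoter sequences are shown for Fos and Nr4a1, the called members, for Fosb as the close relative of Fos, and for Dusp1, which holds the full form of a shared element, because the control element that answers to cyclic AMP and calcium (CRE) lies close to the start site in several of them. Entries for 7 of the 10 genes were read from RefSeq promoter sequences of GRCm38.p6. These run from 250 bases before the transcription start to 50 bases after it. Fos lies at chr12:85473640-85473939 on the plus strand, Nr4a1 at chr15:101266596-101266895 on the plus strand, Fosb at chr7:19309996-19310295 on the minus strand and Dusp1 at chr17:26508423-26508722 on the minus strand. Capitals mark the core of the element, TGACG or its reverse complement CGTCA, including where both overlap in the full element TGACGTCA.

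Fos: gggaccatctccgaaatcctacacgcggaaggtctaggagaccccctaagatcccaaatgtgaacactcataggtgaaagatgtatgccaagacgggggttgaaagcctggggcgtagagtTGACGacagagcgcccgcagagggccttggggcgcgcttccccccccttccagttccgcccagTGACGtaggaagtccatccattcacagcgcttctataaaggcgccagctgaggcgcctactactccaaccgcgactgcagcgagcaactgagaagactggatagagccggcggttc

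Nr4a1: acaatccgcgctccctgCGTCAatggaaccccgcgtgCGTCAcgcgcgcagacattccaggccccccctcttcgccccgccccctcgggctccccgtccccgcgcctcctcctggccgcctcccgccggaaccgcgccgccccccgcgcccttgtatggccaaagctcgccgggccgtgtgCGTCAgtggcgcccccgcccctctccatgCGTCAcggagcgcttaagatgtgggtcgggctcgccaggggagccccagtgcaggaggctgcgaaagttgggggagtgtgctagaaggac

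Fosb: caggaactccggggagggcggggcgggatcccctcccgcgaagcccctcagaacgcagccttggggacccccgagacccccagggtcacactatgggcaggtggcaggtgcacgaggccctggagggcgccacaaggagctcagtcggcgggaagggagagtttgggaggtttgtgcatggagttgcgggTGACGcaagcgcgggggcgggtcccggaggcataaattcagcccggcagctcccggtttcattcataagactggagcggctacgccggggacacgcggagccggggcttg

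Dusp1: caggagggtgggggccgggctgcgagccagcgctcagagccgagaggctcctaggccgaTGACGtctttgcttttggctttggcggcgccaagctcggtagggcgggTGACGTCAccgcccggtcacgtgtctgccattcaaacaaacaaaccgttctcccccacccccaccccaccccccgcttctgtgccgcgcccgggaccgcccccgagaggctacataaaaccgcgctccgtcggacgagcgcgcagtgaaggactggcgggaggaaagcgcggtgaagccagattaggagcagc

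The TGACG core, searched on both strands, was present in at least 1 entry of 7 of the 7 genes and in 20.9% of 32544 promoters of the same length. It began 129 and 66 bases upstream of the start in Fos, 60 bases upstream in Fosb and, for the 2 of the 4 cores in Nr4a1 nearest to its start, 69 and 40 bases upstream. The full element TGACGTCA was found in Dusp1 alone among the 7, beginning 143 bases upstream, and in 1.80% of all promoters. Among the 7, the CArG box, the site bound by serum response factor, was found in Egr2, and TATAAA in Fos and Junb. Of all promoters, 1.64% held the CArG box and 13.6% held TATAAA. These matches describe letters in a window of 300 bases. The member shares count a gene if any entry matched, whereas the other shares count single promoters. Egr2 had more than 1 entry, and not all of them held the core. The GC content of the member entries ran from 56.0% to 72.3%, against a median of 53.0% over all promoters, and TGACG holds a CG. The 2 kinds of share are therefore not like for like, and enrichment was not tested. Arc and Ier2 had no entry. For Egr1, which lies on chromosome 18, promoter entries were not searched.

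In the annotation (GENCODE vM21, GRCm38) each member is a protein-coding gene counted over its exons. Fos spans chr12:85473890-85477273 on the plus strand, and Nr4a1 spans chr15:101254269-101274795 on the plus strand. Arc lies on the same chromosome as Nr4a1, at chr15:74669083-74672570 on the minus strand, and Junb (chr8:84974484-84978718) and Ier2 (chr8:84661331-84662852) share chromosome 8 on the minus strand. Fosb, Npas4 and Dusp1 are on the minus strand of chromosomes 7, 19 and 17, and Egr1 and Egr2 on the plus strand of chromosomes 18 and 10. Junb shares exonic bases with Prdx2 on the opposite strand, and Dusp1 shares 11 exonic bases with an overlapping gene. The library kit does not mark strand, so reads from these overlaps cannot be assigned to 1 gene.

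Per transcript length, the members covered a wide range of levels in the SN. The median over the 42 mice in batch-corrected TPM was 30.9 for Arc, the synaptic scaffold whose RNA travels to dendrites, and 24.8 for Dusp1, the phosphatase that inactivates MAP kinases. It was 20.2 for Junb, a Jun-family partner in the AP-1 transcription factor, 19.8 for Nr4a1, an orphan nuclear receptor, and 16.4 for Fos, the AP-1 partner most used as a marker of neuronal activity. Ier2, a nuclear protein of the early growth response, reached 10.2 TPM and the zinc finger factor Egr1 reached 8.20 TPM. Npas4, a transcription factor induced selectively by calcium entry, had 5.51 TPM, Fosb 0.964 TPM and Egr2 0.362 TPM. Neighbours in this order overlapped in all but 1 step: Nr4a1 exceeded Junb in 23 of 42 mice and Egr1 exceeded Ier2 in 13, whereas Fosb exceeded Npas4 in 0.

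Fos, the lead AP-1 subunit, had its highest group level in monomer mice at 21% O2. Its lowest, median and highest batch-corrected TPM were 13.2, 20.5 and 35.0 there (n = 11), 5.23, 15.2 and 26.4 in PFF mice at 21% O2 (n = 12), 7.54, 13.7 and 20.9 in monomer mice at 11% O2 (n = 9) and 5.75, 15.0 and 32.8 in PFF mice at 11% O2 (n = 10). All 4 ranges overlapped. At 21% O2, 9 of 12 PFF mice lay below the monomer median and 4 lay below the lowest monomer mouse, and among monomer mice 8 of 9 at 11% O2 lay below the 21% O2 median.

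Nr4a1, a receptor gene known to be induced through the same kinase pathways as Fos, had the same highest group and a tighter spread. Its lowest, median and highest TPM were 18.1, 24.6 and 28.7 in monomer mice at 21% O2, 13.0, 19.3 and 28.0 in PFF mice at 21% O2, 13.6, 17.5 and 22.1 in monomer mice at 11% O2 and 16.6, 18.2 and 29.3 in PFF mice at 11% O2. At 21% O2, 11 of 12 PFF mice lay below the monomer median. All 9 monomer mice at 11% O2 lay below that median, 5 of them below the lowest mouse at 21% O2, although the ranges still overlapped.

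Egr1 and Fosb spread widely within groups. Egr1 averaged 12.5 ± 7.09 TPM (SD, n = 11) in monomer mice at 21% O2, 10.2 ± 5.09 (n = 12) in PFF mice at 21% O2, 7.94 ± 3.04 (n = 9) in monomer mice at 11% O2 and 8.67 ± 3.08 (n = 10) in PFF mice at 11% O2. Fosb, a close relative of Fos, averaged 1.26 ± 0.510, 1.32 ± 0.854, 0.843 ± 0.392 and 0.903 ± 0.257 TPM in the same order. The means of both genes were lower at 11% O2, and their ranges overlapped between all groups.

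For 5 of the other 6 members the 4 group means were proportionally closer to each other than those of Fos or Nr4a1, and Egr2 had low counts. In the same order of groups, Arc averaged 30.7 ± 4.59, 28.0 ± 3.82, 34.4 ± 5.33 and 31.9 ± 5.36 TPM. Arc and Egr2 were the members with their highest mean in monomer mice at 11% O2. Dusp1 averaged 25.8 ± 3.61, 23.5 ± 6.28, 24.8 ± 4.07 and 26.0 ± 4.47 TPM, and Junb 21.5 ± 3.28, 20.7 ± 5.10, 18.3 ± 3.72 and 20.4 ± 3.54 TPM. Group means ran from 9.97 to 11.3 TPM for Ier2, from 5.15 to 5.62 TPM for Npas4 and from 0.319 to 0.454 TPM for Egr2, a relative of Egr1 best known from myelinating cells. Egr2 had a median of 5 counts per mouse, too few for the filter of the edgeR fit. DESeq2, which kept it, called it in 0 of the 5 comparisons, with log2 fold changes of -0.66 to 0.26 and SEs of 0.343 to 0.515, so differences of that size were not detectable at this depth.

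**Figure D1:**
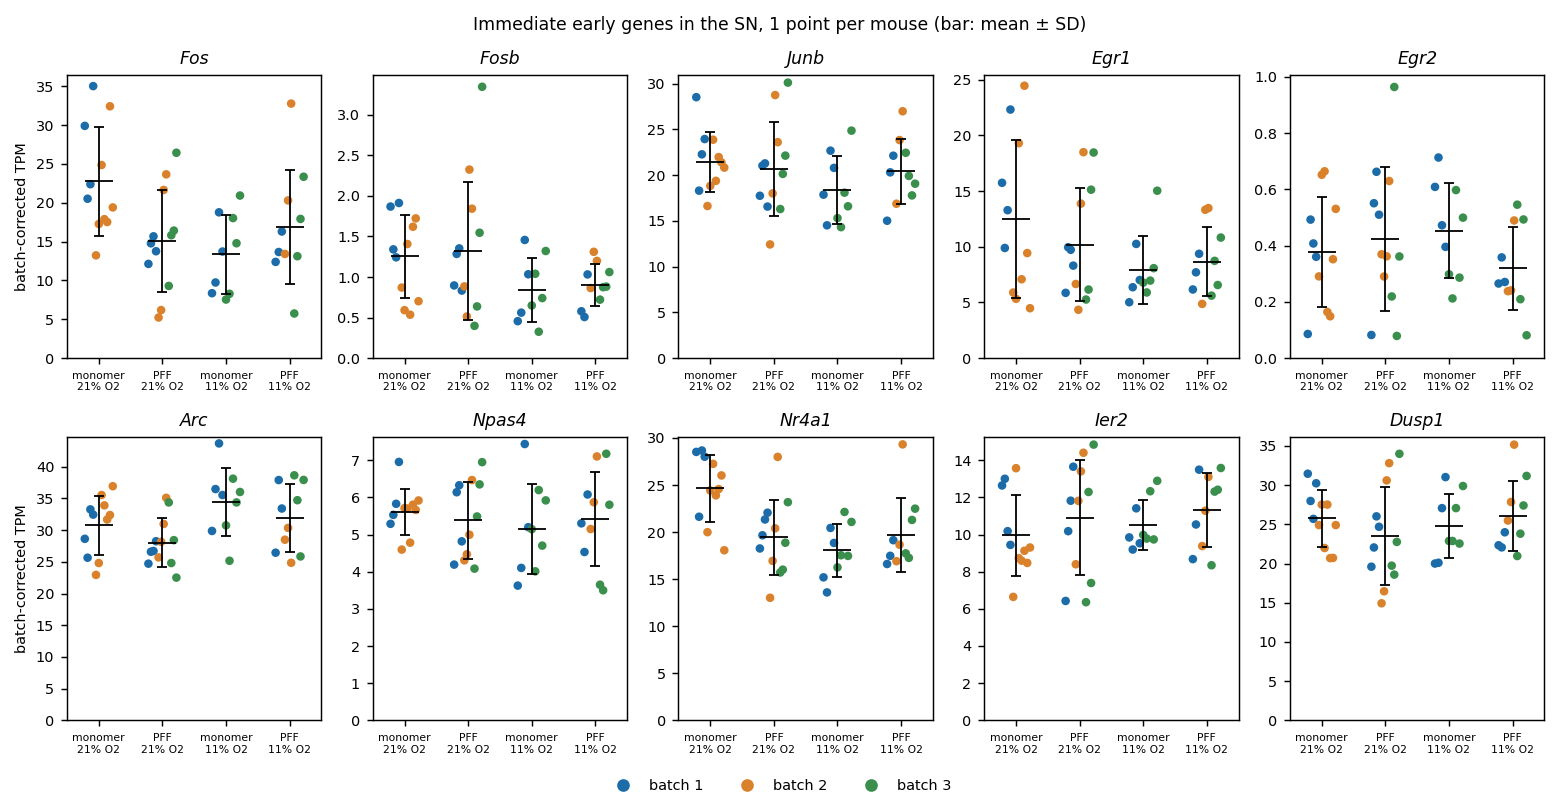
Batch-corrected TPM (vertical axes, linear) of each of the 10 immediate early genes in the 42 mice, 1 panel per gene and 1 column per group; points are mice, coloured by harvest batch, and the bar with whiskers is the group mean ± SD. Fos and Nr4a1 sit highest in monomer mice at 21% O2 (means 22.8 and 24.6 TPM), and the ranges overlap in every panel.

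To determine whether PFF changed the immediate early genes in mice breathing 21% O2, PFF mice were compared with monomer mice. Nr4a1 fell and no other member passed the test. Nr4a1 fell by 0.32 on the log2 scale (SE 0.10, 95% interval -0.53 to -0.12; adjusted p = 0.0404, edgeR quasi-likelihood test with Benjamini-Hochberg adjustment over all genes). Fos had a log2 fold change of -0.57 with a wider interval of -1.02 to -0.12 (adjusted p = 0.115), and Egr1 one of -0.27 (adjusted p = 0.579). The other 6 tested members lay between -0.12 for Arc and 0.15 for Ier2. The call was 1 of 9 members, where a call needs an adjusted p below 0.05 and a log2 fold change beyond 0.25, and 3.70% of all tested genes were called. The median of the members was -0.11 against 0.00085 for all genes.

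The Nr4a1 call lay near its threshold. It was lost when any 1 of 14 mice was left out, with adjusted p between 0.0501 and 0.0807: monomer mice 1, 3, 4, 6, 7, 8, 9 and 11 and PFF mice 1, 5, 6, 7, 9 and 10 at 21% O2. Its fold change stayed between -0.38 and -0.28 in the 42 fits that each omitted 1 mouse. Fos was called neither in the reported fit nor in any of those 42 fits, but it passed on the counts before correction with batch in the model (-0.78, adjusted p = 0.00864) and with the replicate number, which did not pair the mice, as a block (-0.67, adjusted p = 0.0114). The Nr4a1 call was lost on all 48 mice before correction (-0.35, adjusted p = 0.141), with only the 2 groups fitted (adjusted p = 0.0532), without batch 1 (-0.28, adjusted p = 0.202) and within each of batches 1 and 2 alone.

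The comparison of 11% O2 with 21% O2 in monomer mice asked how the oxygen levels differed without PFF. Of the kept mice, 7 of 11 at 21% O2 came from harvest batch 2 and 5 of 9 at 11% O2 from batch 3. Oxygen level therefore cannot be fully separated from batch here. Fos and Nr4a1 both fell. Fos fell by 0.76 on the log2 scale (SE 0.25, 95% interval -1.26 to -0.27; adjusted p = 0.0323) and Nr4a1 by 0.44 (SE 0.11, 95% interval -0.66 to -0.22; adjusted p = 0.00518). Egr1 had a log2 fold change of -0.64 (95% interval -1.21 to -0.07, adjusted p = 0.129), and Fosb one of -0.56 (adjusted p = 0.217). Egr1 passed in the 42 mice when uncorrected counts were used, with batch in the model (-0.99, adjusted p = 0.0143) and without it (adjusted p = 0.00953). Junb had -0.22 and Arc 0.17, and the other 3 lay between -0.12 and 0.08. Thus 2 of 9 members were called, both lower, against 7.23% of all tested genes. This comparison and the one of PFF with monomer at 21% O2 share the 11 monomer mice at 21% O2, so the 2 sets of fold changes are not independent.

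The fall of Nr4a1 in this comparison was called in each of the 42 fits without 1 mouse, with log2 fold changes of -0.48 to -0.40. It was lost on all 48 mice before correction, with the 6 left-out mice included (-0.34, adjusted p = 0.207), and in batch 1 alone. The Fos call was lost in 7 of them (adjusted p 0.0507 to 0.0748), those without monomer mice 1, 2, 5 or 6 at 11% O2 or monomer mice 1, 4 or 11 at 21% O2. Without harvest batch 1, an alternative chosen after the data had been seen, neither gene was called: Fos had -0.54 (adjusted p = 0.452) and Nr4a1 -0.30 (adjusted p = 0.283).

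Among mice breathing 11% O2, no member passed the test for PFF against monomer. The log2 fold changes ran from -0.10 for Arc to 0.36 for Fos (95% interval -0.16 to 0.87). Of the members 0 of 9 were called and 0 of 9 had an unadjusted p below 0.05 by edgeR, and DESeq2 called 0. Of all tested genes 0% were called by edgeR, 581 had an unadjusted p below 0.05, and DESeq2 called 1. For Nr4a1 the interval of the difference was -0.09 to 0.37, which holds no fall of the size seen at 21% O2.

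Among PFF mice, 11% O2 against 21% O2 also gave 0 of 9 called members by edgeR and 0 by DESeq2, against 0.580% of all tested genes. The 1 member with an unadjusted p below 0.05 was Arc, with a log2 fold change of 0.19 (95% interval 0.01 to 0.37; adjusted p = 0.446). Nr4a1 had 0.02 (95% interval -0.19 to 0.23) and Fos 0.16 (95% interval -0.31 to 0.64). Fosb had -0.55, the most negative of the 9, with an interval from -1.12 to 0.02.

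The interaction asks whether the difference between PFF and monomer depended on the oxygen level, and it was tested directly. It uses the same monomer mice, whose oxygen level could not be fully separated from harvest batch. By edgeR 0 of 9 members were called, as by DESeq2, against 2.14% of all tested genes, and 2 members had an unadjusted p below 0.05. These were Fos, with an interaction of 0.93 on the log2 scale (SE 0.34, 95% interval 0.24 to 1.61; adjusted p = 0.144), and Nr4a1, with 0.46 (SE 0.15, 95% interval 0.16 to 0.77; adjusted p = 0.0967). The other 7 tested members ran from -0.03 for Ier2 to 0.41 for Egr1. Nr4a1 passed when PFF mouse 8 at 21% O2 was left out (adjusted p = 0.0411), and Fos passed on the counts before correction with batch in the model (1.11, adjusted p = 0.0359).

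**Figure D2:**
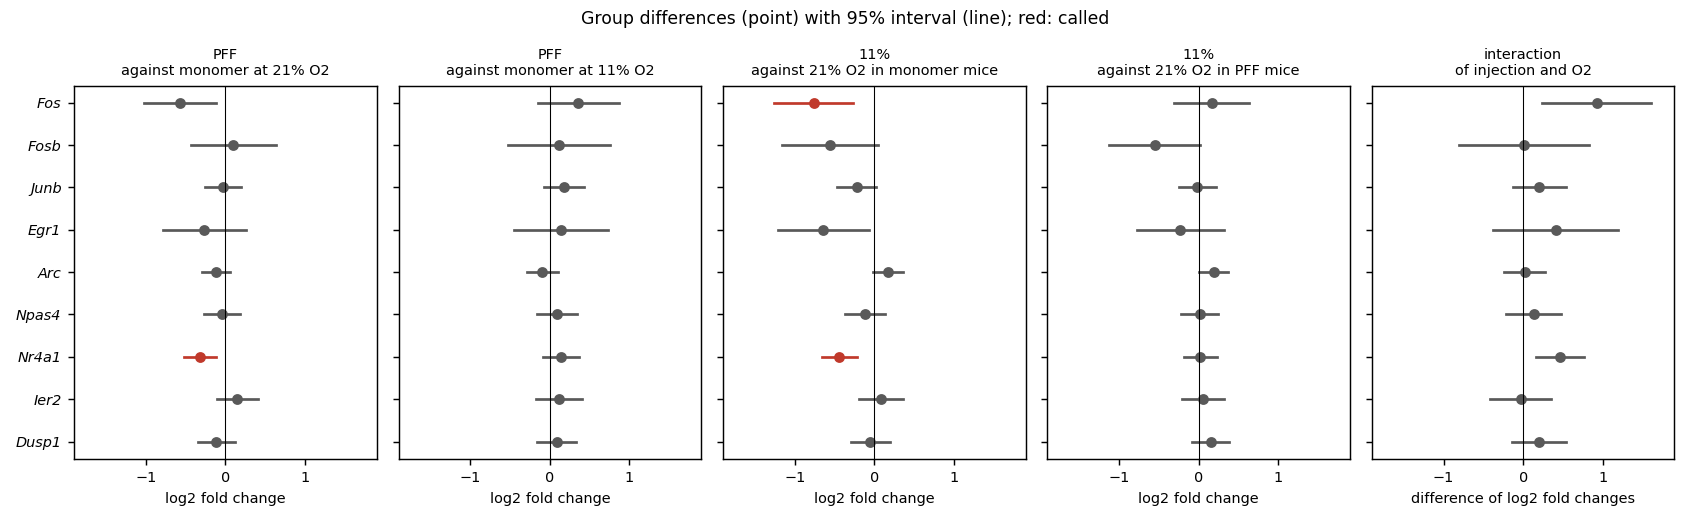
Log2 fold changes (horizontal axis) of the 9 tested members in the 5 comparisons, with 95% intervals as lines, 1 panel per comparison; red points and lines were called. The called points are Nr4a1 at -0.32 for PFF at 21% O2 and Fos at -0.76 and Nr4a1 at -0.44 for 11% O2 in monomer mice, and no point is called at 11% O2, in PFF mice or for the interaction.

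The members were also compared between harvest batches. By the F test over all batches, the share that differed was not far from that of all genes. For batches 2 and 3 against batch 1 the share called was higher than that of all genes. Mice were harvested in 3 batches that the groups did not share evenly: PFF mice had 4 per oxygen level in each batch, monomer mice at 21% O2 had 4 in batch 1 and 8 in batch 2, and monomer mice at 11% O2 had 4 in batch 1 and 8 in batch 3. In the counts before correction of all 48 mice, with group in the model, 4 of 9 members differed between batches by the quasi-likelihood F test, against 31.8% of all tested genes. They were Egr1 (adjusted p = 0.00254), Arc (adjusted p = 0.0124), Npas4 (adjusted p = 0.0136) and Fosb (adjusted p = 0.0324). Fos (adjusted p = 0.114) and Nr4a1 (adjusted p = 0.684), the called members of the group comparisons, did not pass.

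Of the 4 members that passed, Arc differed in the opposite direction to Egr1, Fosb and Npas4. Mean TPM in batches 1, 2 and 3 (n = 16 each), pooled over groups that the batches hold unequally, was 14.1, 8.58 and 6.70 for Egr1, 1.47, 0.951 and 0.793 for Fosb, and 5.89, 4.70 and 4.47 for Npas4. For Arc it was 25.8, 28.6 and 33.2. Between batches 2 and 1 the members called were Egr1, Fosb and Npas4, all lower in batch 2 (3 of 9; 10.5% of all genes), and between batches 3 and 1 they were Egr1 and Npas4, lower, and Arc, higher (3 of 9; 14.2% of all genes). Between batches 3 and 2, 0 of 9 members and 0% of all genes were called by edgeR, and the smallest unadjusted member p was 0.0836. With group in the model, batch 3 against 2 was 0.07 for Egr1 and 0.04 for Fosb. With PFF mice only, whose groups were balanced over the batches, 0 members passed the F test (Egr1 adjusted p = 0.119, Arc 0.142, Npas4 0.147), against 13.3% of all genes.

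Batch 1 held the widest difference in Fos. There the 4 monomer mice at 21% O2 had 37.1, 20.9, 24.0 and 45.1 TPM before correction, the 4 PFF mice at 21% O2 had 11.3, 15.0, 16.7 and 14.0, the 4 monomer mice at 11% O2 had 6.73, 8.52, 22.8 and 14.7 and the 4 PFF mice at 11% O2 had 11.0, 12.7, 12.5 and 16.3. All 4 monomer mice at 21% O2 lay above all PFF mice of the batch, and 1 monomer mouse at 11% O2 reached into their range. Egr1 in the same mice was 24.0, 11.5, 18.6 and 38.6 TPM for monomer at 21% O2 and 5.03, 11.8, 11.7 and 9.15 TPM for PFF at 21% O2, which overlap. Nr4a1 was 27.3, 20.4, 27.4 and 26.4 TPM for monomer at 21% O2 and 17.3, 18.3, 20.3 and 21.1 TPM for PFF at 21% O2, and 14.5, 12.8, 19.5 and 18.1 TPM for monomer at 11% O2, so that the last group lay below all monomer mice at 21% O2.

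For the comparisons in which Fos or Nr4a1 was called, the fold changes of both genes within batches kept their sign where they could be computed, and none passed the test. For PFF against monomer at 21% O2, Fos had -1.14 in batch 1 and -0.61 in batch 2, and Nr4a1 -0.38 and -0.25. Egr1 had -1.28 in batch 1 and -0.07 in batch 2, and Fosb -0.83 and 0.20, so the sign of Fosb differed between the batches. For 11% O2 against 21% O2 in monomer mice only batch 1 held both groups, with -1.28 for Fos (adjusted p = 0.0848), -0.65 for Nr4a1, -1.46 for Egr1, -0.98 for Fosb and 0.29 for Arc. Outside batch 1, monomer mice at 21% O2 came from batch 2 and those at 11% O2 from batch 3, so no value within a batch could be had there. With group in the model, batch 3 differed from batch 2 by 0.34 for Fos and 0.04 for Nr4a1, neither called. The authors' batch correction lowered the mean of the batch 1 monomer mice at 21% O2 from 31.8 to 27.0 TPM for Fos and from 23.2 to 15.3 TPM for Egr1.

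**Figure D3:**
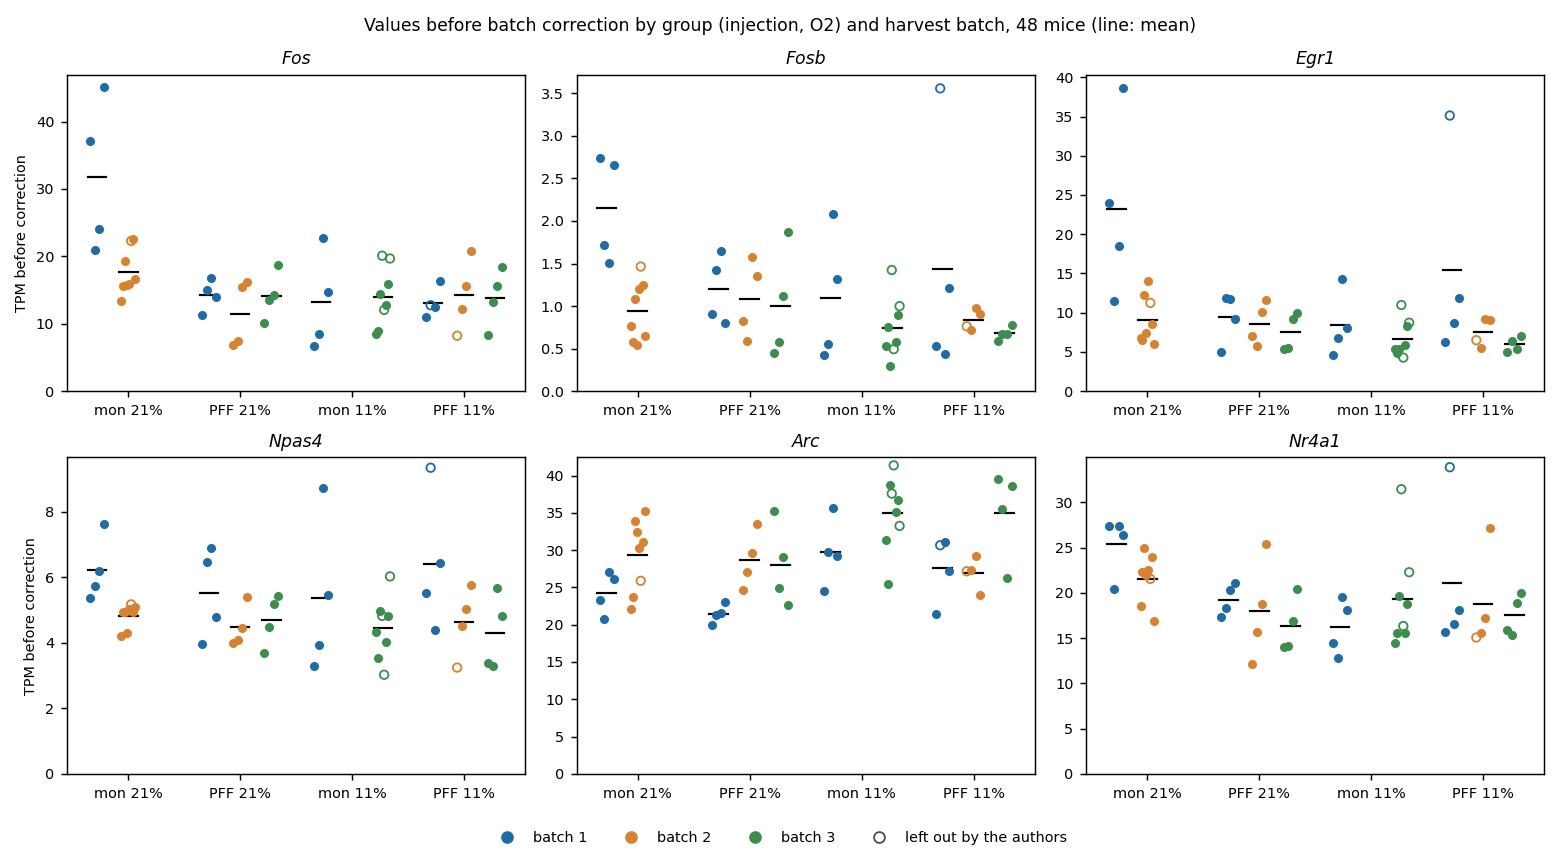
TPM before batch correction (vertical axes, linear) of Fos, Fosb, Egr1, Npas4, Arc and Nr4a1 in the 48 mice, 1 panel per gene, by group and harvest batch; points are mice coloured by batch, open points are the 6 mice left out by the authors and lines are means. In batch 1 the monomer mice at 21% O2 reach 45.1 TPM for Fos and 38.6 TPM for Egr1, and Egr1 has its lowest batch mean in batch 3 (6.70 TPM) while Arc has its highest there (33.2 TPM).

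Immediate early genes varied more between mice of a group than most genes did. The biological coefficient of variation, the spread between mice beyond counting error, was 0.423 for Egr1, 0.415 for Fosb and 0.371 for Fos, against a median of 0.0861 over all 14839 tested genes. Arc had the smallest of the members, 0.138, and still lay at the 79.4th percentile. All 9 tested members lay above the 75th percentile in the corrected counts. In the counts before correction 8 did, and Arc lay at the 72.5th percentile. Among the 1000 genes nearest in level the members ranged from the 72.8th percentile (Npas4) to the 98.9th (Egr1). For PFF at 21% O2 the fold change of Fos carried an SE of 0.22 and that of Nr4a1 an SE of 0.10.

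**Figure D4:**
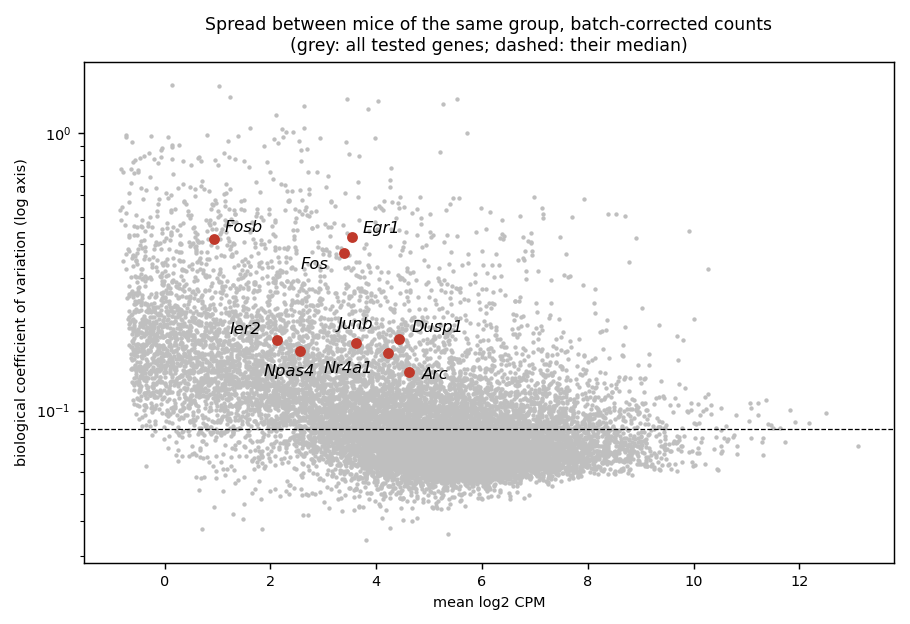
Biological coefficient of variation (vertical axis, log scale) against mean log2 CPM, that is counts scaled to library size (horizontal axis) of all 14839 tested genes, with the 9 tested members marked in red and the median of all genes, 0.0861, as a dashed line. Egr1, Fosb and Fos stand highest among the members, at 0.423, 0.415 and 0.371.

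Levels of the members were positively correlated from mouse to mouse. After the mean of each group within each batch was subtracted from the log2 CPM (counts scaled to library size) of the 48 mice, all 45 pairs had a positive Pearson r, with a median of 0.447. Of these, 26 pairs passed both for Pearson's r and Spearman's rho (two-sided permutation test within group and batch, Benjamini-Hochberg adjustment over 45 pairs). The highest was Fosb with Egr1 (r = 0.857, rho = 0.836, both with a permutation p of 1e-05, the smallest that 100000 permutations can give, adjusted 3.75e-05), and r was 0.813 without the 2 mice farthest from the Fosb median. For Fos with Dusp1, whose protein inactivates the kinases upstream of Fos, r was 0.745 and rho 0.754 (permutation p = 1e-05 and adjusted p = 3.75e-05 for each; r = 0.751 without the 2 farthest mice). With the 42 kept mice 26 pairs passed and 41 were positive. The share of pairs of other genes that would pass was not computed, so these counts have no background beside them.

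Arc and Egr2 passed with the fewest partners. Junb passed with 8 of its 9 partners, Nr4a1 and Dusp1 with 7, and Fos, Fosb, Egr1 and Npas4 with 6, whereas Arc passed with Junb only and Egr2 with Ier2 only. Neither of these last 2 pairs passed on the 42 kept mice, and the median of 5 counts limits any correlation of Egr2. Arc with Ier2 had the lowest r, 0.0177 (rho = -0.0037, permutation p = 0.902 and 0.982; r = -0.0092 without the 2 farthest mice). Across all 48 mice, the r of a member with the mean of the others was 0.855 for Egr1, 0.847 for Nr4a1 and 0.822 for Junb, against 0.364 for Ier2 and 0.324 for Arc. Values of 1 mouse share a library and its depth. Among 18149 genes compared, the 10 genes most like the mean of the members, with r given as a description, were Sik1 (0.799), 1700016P03Rik (0.792), Btg2 (0.759), Tmed9 (0.722), Fosl2 (0.721), Park7 (0.713), Snrpb (0.712), Timm13 (0.703), 3110082I17Rik (0.700) and Oaz1 (0.697). Sik1, a kinase of the CREB feedback loop, Btg2, an antiproliferative factor, and Fosl2, a relative of Fos, belong to the listed rapidly induced genes.

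**Figure D5:**
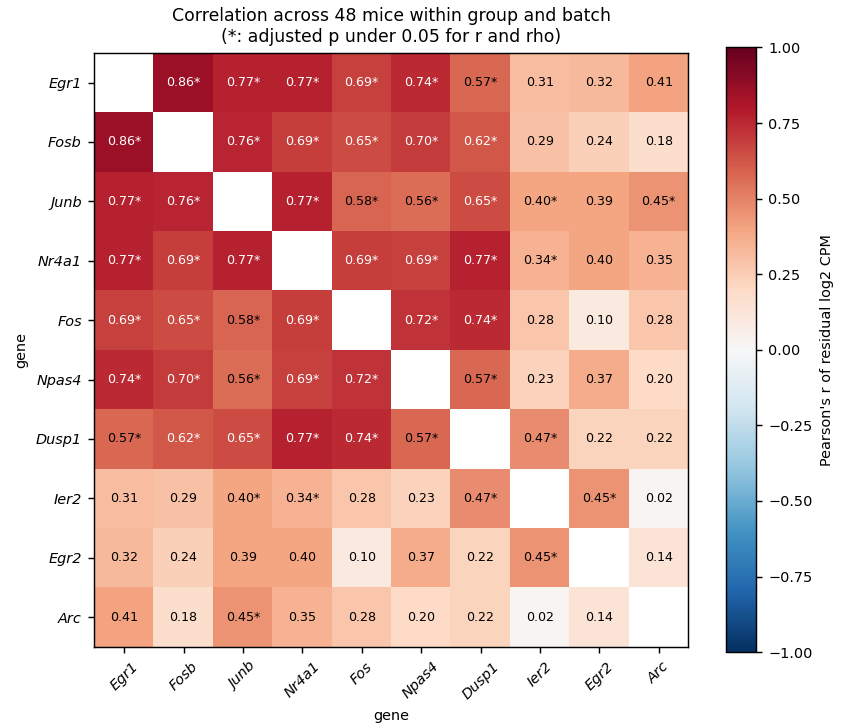
Pearson r between the 10 members (rows and columns) across 48 mice after subtraction of the mean of each group within each batch; colour and number give r, and an asterisk marks pairs that passed the permutation test for both r and rho. Fosb with Egr1 is the highest pair (0.857), and the Arc and Egr2 columns have 1 asterisk each.

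Beside the members, a list of 41 other rapidly induced genes, 39 of them tested, was examined. For PFF against monomer at 21% O2, 7 were called lower and 0 higher, against 3.70% of all tested genes called. The list median was -0.07 against 0.00085 for all genes. Nr4a3, the nuclear receptor closest to Nr4a1 in function, fell by 0.94 (log2, SE 0.14; adjusted p = 3.84e-05), Fosl2 by 0.68 (SE 0.11), the zinc finger factor Egr4 by 1.08 (SE 0.19) and Homer1, a postsynaptic scaffold, by 0.27 (SE 0.06). Nr4a3 ran from 1.89 to 4.24 TPM in monomer mice and from 1.03 to 2.32 TPM in PFF mice at 21% O2, ranges that overlap at their ends. For 11% O2 in monomer mice 7 were called lower, led by Nr4a3 (-0.86), Homer1 (-0.30), the clock gene Per1 (-0.48) and Fosl2 (-0.58), and 2 higher, Ier5 (0.26) and Gadd45b (0.36). Of all tested genes 7.23% were called in that comparison. Without batch 1 the first count was 7 lower and 2 higher and the second 1 lower and 1 higher, and within batch 1 alone each count was 1 lower.

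At 11% O2, PFF against monomer called 0 of the 39 by edgeR and 0 in each alternative, DESeq2 included, with 1 at an unadjusted p below 0.05. In PFF mice the change of oxygen called 1, Btg1, which rose by 0.27, against 0.580% of all tested genes called. The interaction called 5 of the 39, all positive, which for these genes was a difference tested directly: Fosl2 (0.79, SE 0.17), Nr4a3 (1.00, SE 0.22), Btg1 (0.41, SE 0.09), Egr4 (1.30, SE 0.30) and Homer1 (0.32, SE 0.08). Across alternatives this count ranged from 0 to 5.

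Counts for genes downstream and upstream of the immediate early wave are read against 3.70% of all genes called for PFF at 21% O2 and 7.23% for 11% O2 in monomer mice. Of 24 later activity-regulated genes 2 fell with PFF at 21% O2, the receptor gene Gpr3 (-0.47) and Tiparp (-0.28), and 3 fell with 11% O2 in monomer mice: Tiparp (-0.43), Gpr3 (-0.47) and Nptx2 (-0.93), which encodes a secreted synaptic pentraxin. Of 28 upstream kinases and transcription factors 0 were called for PFF at 21% O2 by edgeR, with 9 at an unadjusted p below 0.05 and 0 to 1 called in the alternatives. In monomer mice at 11% O2, Creb1, the factor that binds the CRE, fell by 0.26 and Elk3 rose by 0.34. Among 15 repressors and phosphatases of the pathway, Dusp1 included, Spry4, an inhibitor of growth factor signalling, fell by 0.49 with PFF at 21% O2 and by 0.50 with 11% O2 in monomer mice, where Zfp36l2, which encodes an mRNA decay factor, rose by 0.37.

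Heat shock and glucocorticoid-responsive genes, which also answer acutely, held called genes in the same 2 comparisons. Of 12 heat shock genes, 7 fell with PFF at 21% O2, against 3.70% of all tested genes called. With 11% O2 in monomer mice 9 fell, against 7.23%. The co-chaperones Dnajb1 (-0.71 and -0.87) and Hsph1 (-0.48 and -0.66) were among the 4 with the smallest p in both, with Hspa1a (-1.60 and -2.09) and Hspa1b (-2.39 and -3.14), near-identical copies whose reads may be split uncertainly. Sums over the 12 are in TPM before correction and include the mice left out by the authors, unlike the fold changes. Heat shock genes stood at 3688 to 4941 TPM in monomer mice at 21% O2, 3112 to 4051 in PFF mice at 21% O2, 2958 to 3490 in monomer mice at 11% O2 and 2750 to 3514 in PFF mice at 11% O2. Of 12 glucocorticoid-responsive genes, 5 fell and 1 rose with PFF at 21% O2, among them Errfi1 (-0.39), Tsc22d3 (-0.28) and Sgk1 (-0.99) lower and the metallothionein gene Mt2 (0.40) higher, and 7 fell with 11% O2 in monomer mice. Across alternatives, the count of heat shock genes called lower ranged from 0 to 10 with PFF at 21% O2. With 11% O2 in monomer mice it ranged from 4 to 11. For glucocorticoid-responsive genes these ranges were 0 to 5 and 2 to 8. The part of these responses in the levels of Fos and Nr4a1 was not tested.

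Markers of several cell types were called beside the members. Of 8 DA neuron, 6 general neuron and 3 GABA neuron markers, 0 were called by edgeR in any of the 5 comparisons, with at most 1 of a list at an unadjusted p below 0.05. With 11% O2 in monomer mice, 4 of 5 endothelial markers rose (Cldn5 by 0.74), as did 4 of 4 tested pericyte markers (Rgs5 by 0.74) and 4 of 4 red cell markers (Hba-a1 by 1.31). Of all tested genes 7.23% were called there. Sums of markers are given in TPM before correction and include the mice left out by the authors, unlike the fold changes. Summed endothelial markers ran from 66.6 to 196.0 TPM in monomer mice at 21% O2 and from 113.1 to 476.2 TPM at 11% O2, and red cell markers from 518.2 to 1699 and from 886.9 to 5099 TPM. In the same comparison Prox1, 1 of 6 cortex and hippocampus neuron markers, rose by 0.28, and Mog, 1 of 5 oligodendrocyte markers, rose by 0.32. In PFF mice, 11% O2 raised Flt1 by 0.53, Cldn5 by 0.47 and Kcnj8 by 0.34. The interaction was negative for Mog (-0.33) and for the pericyte marker Pdgfrb (-0.39). The part of these markers in the fall of Fos and Nr4a1 with 11% O2 in monomer mice was not tested. For PFF against monomer at 21% O2, 0 of these vascular and red cell markers were called by edgeR, with 1 at an unadjusted p below 0.05.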

How the data were processed

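RNA-seq of the SN of 48 mice was analysed from tables with mice in rows and genes in columns. Per the labels and the methods, poly(A) libraries (NEBNext Ultra) were aligned with STAR 2.7.5a to mm10, reads from ribosomal DNA were removed, and featureCounts 2.0.1 counted reads over GENCODE vM24 exons without regard to strand; Picard 2.21.9, GATK 4.1.5.0-9 and Scanpy 1.8.1 are also named in the submitters' processing notes. The authors deposited raw counts of 55385 genes in 48 mice and, for 42 mice and 19601 protein-coding genes, counts corrected for harvest batch with ComBat-seq, with oxygen and injection as covariates. The deposited TPM values sum to 1000000 per mouse before correction, and the authors' corrected TPM values were used here for group levels.

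Groups came from the sample titles. The corrected counts of all 42 mice were fitted together with edgeR 4.0.16 (limma 3.58.1, R 4.3.3; TMM, filterByExpr, quasi-likelihood test, Benjamini-Hochberg over 14839 genes). A call needed an adjusted p below 0.05 and an absolute log2 fold change above 0.25. Batches were tested on the counts before correction, with group in the model. Alternatives were DESeq2 1.42.0, other filters, counts before correction, single batches, a replicate block and leaving out each mouse. Correlations used Python 3.11.15 and scipy 1.17.1, with 100000 permutations within group and batch. In data simulated for the comparison of PFF with monomer at 21% O2 (14794 genes), 87.9% of genes changed by 0.5 on the log2 scale were recovered, and 98% of those changed by 1. For 11% O2 in monomer mice (14792 genes) these shares were 86% and 93%, and for the interaction (14796 genes) 75% and 94%. The changed genes were drawn at random from all tested genes, whose median biological coefficient of variation was 0.0861. The members had values of 0.138 to 0.423, so these shares do not give the recovery for the members.

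The members and the gene lists were chosen with earlier results of these data known, so list counts are descriptions and no list was tested as a set. All 10 members are named; of each other list, up to 4 called genes with the smallest p per comparison are named. Genes outside the members are also named as the 10 most correlated with the members' mean. Ier5, Gadd45b, Mt2 and, for the interaction, Homer1 fall outside this rule and were chosen after their values were seen. Separate mice are the replicates.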

Additional observations from a re-analysis of the deposited data

Results flagged for a closer look

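In 120 groups of 4 to 10 mice checked, over the members and tables, 5 values (4.17%) lay farther from the rest of their group than Dixon's 95% limit allows, where chance gives about 1 in 20. Of these, 4 were Nr4a1 and 1 was Egr2. PFF mouse 2 at 11% O2, the library with the fewest counts and left out by the authors, had 33.87 TPM of Nr4a1 before correction, against 18.13 TPM in the next mouse of its batch, and 1.422 TPM of Egr2, against 0.2633 TPM. PFF mouse 8 at 11% O2, which was kept, had 29.32 TPM of Nr4a1 after correction, with 22.49 TPM in the next mouse of its group. Monomer mouse 8 at 11% O2, left out by the authors, had 31.44 TPM of Nr4a1 before correction in batch 3, with 22.27 TPM in the next mouse. Monomer mouse 2 at 21% O2 had the lowest Nr4a1 of its 4 batch 1 mice, 20.38 TPM before correction, with 26.35 TPM in the next.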

How the results depend on the processing

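Of 612 values of single members under the alternatives, 540 kept their direction and their side of the threshold, 10 lost a call, 7 gained one and 55 changed sign, 0 of them with a call on either side. For PFF against monomer at 21% O2, 1 member was called as reported; 2 were called on the 42 mice before correction with batch in the model, 2 without it and 2 with the replicate block, where Fos joined Nr4a1, and 0 in batch 1 alone, 0 in batch 2 alone, 0 without batch 1 and 0 when only the groups compared were fitted (Nr4a1 adjusted p = 0.0532). On all 48 mice before correction Fos was called there and Nr4a1 was not (adjusted p = 0.141). For 11% O2 in monomer mice, 2 were called as reported, 1 on the 48 mice before correction (Nr4a1 adjusted p = 0.207), 0 in batch 1 alone and 0 without batch 1, which leaves fewer mice. Egr1 joined Fos and Nr4a1 there on the 42 mice before correction, with and without batch in the model. For the interaction, 1 was called on the 42 mice before correction with batch in the model. For harvest batch, 0 were called with PFF mice only. Without 1 mouse at a time, the counts ran from 0 to 1 (PFF at 21% O2), 0 to 0 (PFF at 11% O2), 1 to 2 (11% O2 in monomer mice), 0 to 0 (11% O2 in PFF mice) and 0 to 1 (interaction). The cause of these changes was not tested. Fos and Nr4a1 were lower for PFF at 21% O2 in 14 of 14 settings and for 11% O2 in monomer mice in 13 of 13, and Fosb kept its sign for PFF at 21% O2 in 7 of 14. Replicate numbers did not pair the mice: 4 of 11, 1 of 7, 0 of 8 and 5 of 10 pairs deviated together (r above 0.1), in the order above without the interaction, and the block changed no other count of called members. Over all genes, 549 calls for PFF at 21% O2 became 1127 by adjusted p alone, 924 before correction with no batch term and 3 in batch 1; 1073 calls for 11% O2 in monomer mice became 1961 by adjusted p alone, 67 in batch 1 and 571 without batch 1; 86 calls for 11% O2 in PFF mice became 2, 3 and 1 in batches 1, 2 and 3 and 33 without batch 1; 318 for the interaction became 495 before correction with no batch term and 0 in batch 1; and 0 for PFF at 11% O2 became 1 with DESeq2.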
